A study of Arabidopsis thaliana with 2 samples.

Results

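The 53 genes described here had a signal at least 2-fold lower in the NOT array than in the WDC array, measured in Arabidopsis thaliana rosettes of accession Col-0. They were taken from 3602 genes that the platform annotation names by a probe set of their own, with the brightest probe set standing for each gene. A gene was included when its WDC signal exceeded the signal floor, set at the 40th percentile of all signals, and was at least 2 times its NOT signal or the floor, whichever was higher. In all, 72 genes met this rule, and 19 of them, mostly stress markers, heat shock and detoxification genes, were set aside by name. The 53 were therefore chosen by the same ratio that is given for them below, and their direction is a description and not a test.

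The series concerns the action of nitric oxide in plants and holds 2 arrays, 1 per group. Both groups share accession, tissue, growth stage (3.5), compost, 22 °C and 24 h of light, after 1 week at 4 °C. The tissue label gives rosette leaves, whereas the extraction label speaks of seedlings. NOT and WDC are codes from the sample titles. The labels mention a control but tie it to neither code, so neither array is called treated, and every comparison runs from NOT to WDC. Each sample was a pool, stated as 4 experiments of about 8 leaves each. With 1 array per group there is no replicate check, no p-value was computed, and precision is limited by having so few arrays. Fewer cells of a type and less RNA per cell cannot be told apart in whole leaves.

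Nitric oxide is a gas that plant cells make and sense, and it acts together with reactive oxygen in defence, wounding and development. Leaves answer such cues within minutes to hours by raising transcripts for calcium sensors, kinases and phosphatases, secreted enzymes, pathogenesis-related proteins and factors of protein turnover. Many of these transcripts are scarce in resting leaves. Some of the 53 genes have functions of this kind and others do not, and they are taken up by function below. The functions were assigned after the members were known. Whether the genes answered such a cue was not tested.

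Signals of the 53 genes ranged from 25.2 to 945.3 in WDC, with a median of 59.8, and from 2.5 to 427.4 in NOT, with a median of 17.6. Of the 53, 6 were at least 5-fold lower in NOT, 8 between 3-fold and 5-fold, and 39 between 2-fold and 3-fold, with lower bounds counted at their value. In NOT, 12 genes lay at or below the floor, so that their fold is a lower bound, WDC over the floor. The highest of these was AT2G39650 at 12.4, and the lowest NOT signal above the floor was 12.9, of AT2G19385. A further 15 lay above it by less than 1.5 times, under 18.75, which leaves the size of their fold uncertain, and 26 were brighter. A signal of 100 was reached by 16 genes in WDC and by 3 in NOT, SRC2, TET8 and PRA1.B4. A mark for shared or similar sequence, by which related genes can add to a signal, is carried by the probe sets of 6 members, AT4G24160, AT2G39650, AT2G47890, HEMA2, SRC2 and AT2G37750. Of the other genes named below it applies to AT2G20670, AT4G22820, AT4G33710, AT2G41410, CML41, IAA20, STZ, THI2.1, LEA, RCA and AT1G30700. AT2G45040, LEA18, DREB2C and ZAT7 carry it too.

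For comparison, 72 of 3602 named genes (2.00%) were at least 2-fold lower in NOT, or 3.40% of the 2118 that were above the floor on either array. The same rule turned round gave 28 genes at least 2-fold higher, 0.777% of all and 1.32% of those above the floor. Among 4453 probe sets with several genes or no gene named here, 121 (2.72%) were at least 2-fold lower, so named genes cover part of the lower signals. The rule used this contrast, so nothing is read from these shares. The median log2 ratio of genes above the floor on both arrays was -0.02. The 9 spiked-in hybridisation controls had log2 ratios from -0.28 to -0.03, with a median of -0.14, so part of a ratio close to 2-fold can lie in the scaling of the arrays. For 93 genes with several probe sets, the SD of log2 ratios between probe sets within a gene was 0.20, a spread of probes and not of plants. Of 12 listed leaf marker genes, 3 had a named probe set. They are no check of tissue identity, as no marker of another tissue was measured. RCA, the activase of Rubisco, gave 2469.2 in NOT and 2441.5 in WDC, and SBPASE, of the Calvin cycle, gave 304.1 and 374.6. Markers of root, flower and seed were not analysed here, as 0 of the listed genes had a named probe set.

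**Figure D1:**
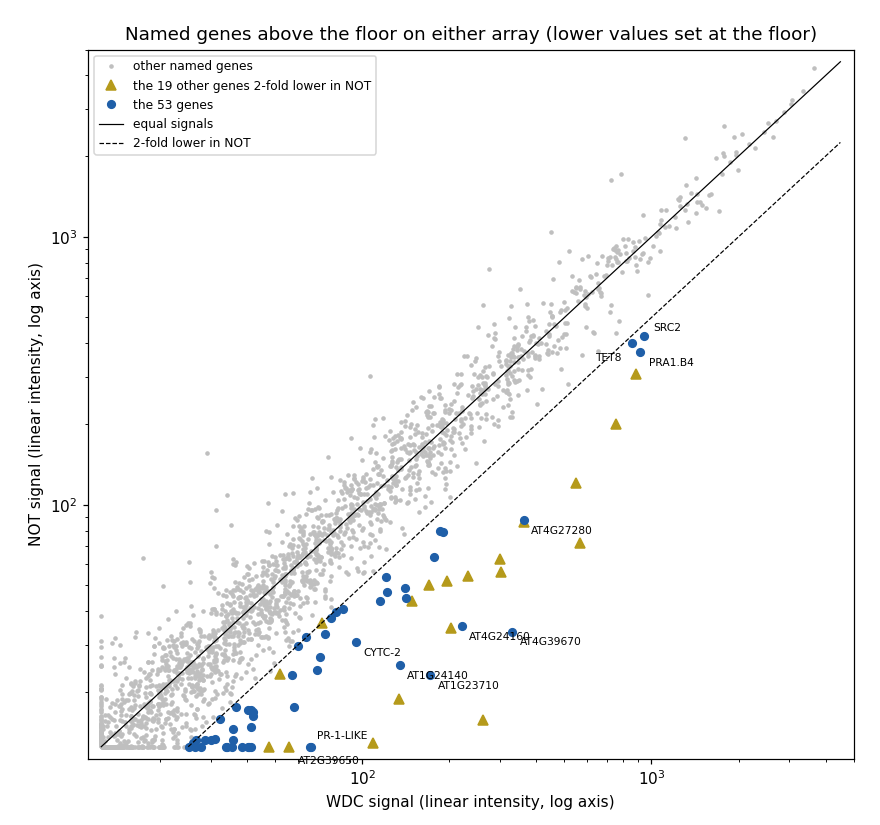
Signal in NOT (vertical, log axis) against signal in WDC (horizontal, log axis), in linear intensity units, for each named gene above the floor on either array, with lower values set at the floor. The 53 genes (blue circles) lie on or below the line of 2-fold lower signals by selection, most of them at WDC signals under 100, and the 19 other genes that met the rule (triangles) reach larger differences.

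Genes of lipids, membranes and vesicle traffic held the member with the lowest ratio among those above the floor on both arrays and 2 of the 3 members with both signals over 100, PRA1.B4 and TET8. AT4G39670, of the glycolipid transfer protein family, whose members carry sphingolipids between membranes, gave 33.6 in NOT and 330.3 in WDC, 9.83-fold lower in NOT. No other listed gene of that family had a named probe set here. AT4G24160, an acyltransferase of lysophosphatidic acid that takes part in lipid turnover, had 35.2 in NOT and 220.5 in WDC, 6.26-fold lower, from a probe set with a shared-sequence mark. Both genes were well above the floor on both arrays.

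PRA1.B4, a prenylated Rab acceptor of the secretory pathway, had 370.0 in NOT and 912.4 in WDC, 2.47-fold lower. Its relatives did not show this ratio, with PRA1.B2 at 222.9 in NOT and 221.8 in WDC, and PRA1.E at 81.8 and 61.3. TET8, a tetraspanin of the plasma membrane known from extracellular vesicles, had 402.9 in NOT and 854.8 in WDC, 2.12-fold lower, while the tetraspanin TET7 had 55.3 and 72.7. AT1G30690, a patellin that binds phosphoinositides, had 14.6 in NOT and 35.7 in WDC, 2.45-fold lower. Another patellin, AT3G51670, stood at 154.0 and 169.3. AT1G04570, a membrane transporter of the major facilitator type, was close to the floor in NOT, with 13.2 against 28.5 in WDC.

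Secreted enzymes and proteins of the cell wall made up 6 members, from 2.33-fold to 5.35-fold lower in NOT for the 3 above the floor on both arrays and lower bounds for the other 3. Plant matrix metalloproteinases cut proteins outside the cell, and 2 of the family were members. AT1G24140 gave 25.2 in NOT and 134.7 in WDC, 5.35-fold lower, and MMP (AT1G70170) had 8.0 in NOT and 38.4 in WDC, at least 3.07-fold lower. Of the 3 other genes of this family, AT1G59970 stood at 27.7 in NOT and 35.7 in WDC, and AT2G45040 and AT4G16640 were below the floor on both arrays. Of 3 metalloproteinase genes above the floor on either array, the 2 at least 2-fold lower were the members, chosen by this ratio, beside 3.40% of all genes above the floor.

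Pectin-modifying genes were represented by AT2G47550, a pectin methylesterase, and AT1G23205, of the family of invertase and pectin methylesterase inhibitors. AT2G47550 had 11.2 in NOT and 40.1 in WDC, at least 3.21-fold lower. AT1G23205 had 49.1 in NOT and 140.6 in WDC, 2.86-fold lower. Enzyme and inhibitor types were thus both among the genes with lower signals in NOT. AT4G32460, a wall protein of the DUF642 family, had 17.2 in NOT and 40.1 in WDC. AT2G41640, a glycosyltransferase of the group that builds side chains of wall polysaccharides and glycoproteins, had 11 in NOT and 35.3 in WDC, at least 2.82-fold lower.

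Proteins related to classical defence markers came to 2 members. PR-1-LIKE (AT2G19990), a relative of the salicylate marker PR1, had 9.3 in NOT and 66.2 in WDC, at least 5.30-fold lower. Of its family 10 genes had a named probe set, of which 3 were above the floor on either array, and these pointed different ways. AT4G07820 was listed at 38.4 in NOT and 2.2 in WDC, the opposite direction, and AT4G33710 at 16.7 and 21.6, within 2-fold. AT4G36010, a thaumatin-like protein of the PR5 type, had 79.4 in NOT and 190.6 in WDC, 2.40-fold lower. Of 5 thaumatin-like genes above the floor on either array it was the 1 past 2-fold, and it was chosen by this ratio. Among all genes above the floor, 3.40% were at least 2-fold lower. The other thaumatin-like genes ranged in log2 ratio from -0.60 (AT4G38660) to 0.50 (AT4G38670).

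Genes of signalling, hormones and growth came to 9 members, from 2.02-fold to 4.12-fold lower in NOT, all of them above the floor on both arrays. The share of such genes among all named genes was not determined, so nothing is read from this number. AT4G27280, a small calcium-binding protein with an EF hand, had 87.8 in NOT and 361.3 in WDC, 4.12-fold lower. SRC2, a membrane-bound C2-domain protein first known as cold-responsive, had 427.4 in NOT and 945.3 in WDC, 2.21-fold lower, from a probe set with a shared-sequence mark. Among 14 listed calcium sensors, a list without these members, 3 had a named probe set. Of these, 0 passed 2-fold, beside 3.40% lower and 1.32% higher among all genes above the floor. CML42 had 98.3 in NOT and 164.6 in WDC, CML41 61.1 and 36.5, and AT2G41410 1185.3 and 1204.0.

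Kinases, phosphatases and receptor-like proteins among the members had WDC signals under 100. AT5G25930, a receptor-like kinase with leucine-rich repeats, had 16.8 in NOT and 41.7 in WDC, 2.48-fold lower. AT1G03440, a protein with leucine-rich repeats, had 17.6 in NOT and 58.2 in WDC, 3.31-fold lower. AT3G46930, a Raf-like protein kinase, had 15.9 in NOT and 32.1 in WDC, 2.02-fold lower. AT2G30020 (AP2C1), a phosphatase that switches off stress-activated MAP kinases, had 17.6 in NOT and 36.6 in WDC, 2.08-fold lower. A second probe set, which the annotation assigns jointly to AT2G30020 and AT4G08260, gave 22.8 in NOT and 52.8 in WDC, 2.32-fold lower, from the same 2 hybridisations. HHP2, a membrane protein with the fold of animal adiponectin receptors, had 14.8 in NOT and 41.3 in WDC, 2.79-fold lower.

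Hormone and growth regulators were IAA18 and ARL. IAA18, a repressor of auxin-responsive transcription, had 53.9 in NOT and 121.1 in WDC, 2.25-fold lower, while IAA20 of the same family had 35.1 and 36.0 and IAA15 was below the floor on both arrays. ARL (ARGOS-like), which promotes cell expansion in leaves, had 43.7 in NOT and 115.1 in WDC, 2.63-fold lower. Both had signals well above the floor on each array.

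Protein turnover and stress-related zinc fingers held 5 members, from 2.26-fold to 2.70-fold lower apart from 1 lower bound. AT2G27580, with the A20 and AN1 zinc fingers of stress-associated proteins, had 79.8 in NOT and 185.6 in WDC, 2.33-fold lower. The 3 other measured genes of this family had log2 ratios closer to 0, -0.07 (AT1G51200), -0.22 (AT2G36320) and -0.34 (AT4G22820). AT4G15420, of the UFD1 family that helps extract ubiquitylated proteins for degradation, had 47.4 in NOT and 121.5 in WDC, 2.56-fold lower. The other 3 lay close to the floor in NOT. AT4G10150, a RING-finger protein, had 13.2 in NOT and 35.7 in WDC, and the neighbouring gene AT4G10160 had 19.1 and 11.1. A probe set that the annotation assigns to both of them was below the floor on both arrays, with 5.4 in NOT and 6.4 in WDC. AT4G37660, related to the Clp protease adaptor ClpS and ribosomal protein L12, had 13.3 in NOT and 30.0 in WDC. AT4G38940, with kelch repeats, had 10.7 in NOT and 26.3 in WDC, at least 2.1-fold lower.

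Genes of mitochondria, plastids and small metabolites came to 4, from 2.27-fold to 3.08-fold lower, all above the floor on both arrays. CYTC-2 encodes a cytochrome c, the electron carrier between complexes III and IV of the respiratory chain. It had 30.8 in NOT and 95 in WDC, 3.08-fold lower, whereas CYTC-1, which encodes the same type of protein, had 1327.8 in NOT and 1329.3 in WDC. The members of this pair thus had unlike ratios, CYTC-1 being nearly equal on both arrays. HEMA2, a glutamyl-tRNA reductase at the entry of tetrapyrrole synthesis, which makes heme and chlorophyll, had 27.0 in NOT and 71.5 in WDC, 2.65-fold lower, from a probe set with a shared-sequence mark. HEMA3 was below the floor on both arrays. AT2G37240, of the thioredoxin superfamily, had 32.8 in NOT and 74.5 in WDC, 2.27-fold lower. AT1G08940, of the phosphoglycerate mutase family, had 24.1 in NOT and 69.5 in WDC, 2.88-fold lower.

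**Figure D2:**
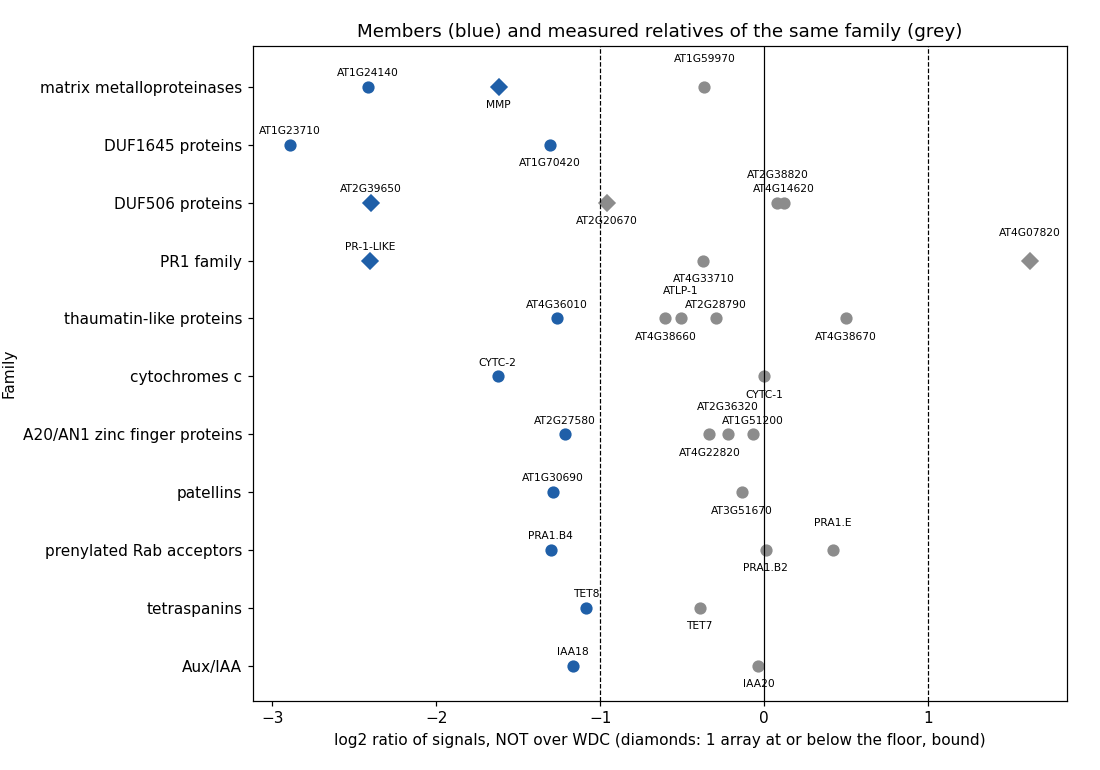
Log2 ratio of signals, NOT over WDC (horizontal), for members (blue) and other measured genes of the same family (grey), with 1 family per row, dashed lines at 2-fold and diamonds for genes at or below the floor on 1 array. Members lie at least 2-fold lower by selection, among them both DUF1645 genes and 2 matrix metalloproteinases. CYTC-1 and PRA1.B2, relatives of CYTC-2 and PRA1.B4, lie near 0, and PRA1.E lies at 0.42.

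Transcription, RNA and translation were represented by 3 members. AT2G47890, a B-box zinc finger protein with a CCT domain, the type of nuclear factor known from light and flowering responses, had 63.7 in NOT and 177.0 in WDC, 2.78-fold lower, from a probe set with a shared-sequence mark. AT4G16680, annotated as an RNA helicase, had 2.5 in NOT and 33.9 in WDC, at least 2.71-fold lower. GEK1, which removes misattached D-amino acids from tRNA and is needed for tolerance of ethanol, had 16.3 in NOT and 41.8 in WDC, 2.56-fold lower. The fold of the helicase is a lower bound and has no order against the other two.

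Members with a domain of unknown function included some of the lowest ratios. AT1G23710 had 23.1 in NOT and 171.4 in WDC, 7.42-fold lower, and AT1G70420, of the same DUF1645 family, had 23.1 in NOT and 57.2 in WDC, 2.48-fold lower. No other listed gene of the DUF1645 family had a named probe set. Both measured genes were members, chosen by this ratio, beside 3.40% of all genes above the floor. AT2G39650, of the DUF506 family, had 12.4 in NOT and 65.8 in WDC, at least 5.26-fold lower, from a probe set with a shared-sequence mark. A relative, AT2G20670, missed the rule narrowly, with 11.4 in NOT and 24.3 in WDC, at least 1.94-fold lower, and 2 further relatives, AT4G14620 and AT2G38820, had log2 ratios of 0.12 and 0.08. AT1G61260, of the DUF761 family, had 12.1 in NOT and 27.7 in WDC, at least 2.22-fold lower.

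A further 6 members carry known domains outside these functions. AT2G18190, an ATPase of the AAA type, had 4.2 in NOT and 41.1 in WDC, at least 3.29-fold lower, and AT4G27680, another AAA ATPase, had 29.6 in NOT and 59.8 in WDC, 2.02-fold lower. AT1G10040, an alpha/beta hydrolase, had 9.6 in NOT and 40.5 in WDC, at least 3.24-fold lower. The others lay close to 2-fold. AT2G03430, with ankyrin repeats, had 40.8 in NOT and 85.8 in WDC, 2.1-fold lower. AT2G46140 (LEA27), a late embryogenesis abundant protein of the type linked to water loss, had 39.8 in NOT and 81.1 in WDC, 2.04-fold lower. AT1G59910, an actin-binding formin, had 11.7 in NOT and 25.2 in WDC, at least 2.02-fold lower. LEA and LEA4-5, genes named for the same group of proteins, stayed within 2-fold, and LEA18 was below the floor on both arrays.

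No role is stated for 8 members, of which the 7 above the floor on both arrays were from 2.00-fold to 3.15-fold lower. AT2G36220 had 45.0 in NOT and 141.9 in WDC. AT2G35480 had 9.1 in NOT and 33.8 in WDC, at least 2.70-fold lower. AT4G35320 had 17.2 in NOT and 41.1 in WDC, and AT1G12020 had 13.4 and 30.9. AT2G31410 had 37.8 in NOT and 78.2 in WDC. The last 3 stood at the edge of the rule. AT2G19385 had 12.9 in NOT and 25.9 in WDC, AT2G37750 had 13.2 and 26.5, and AT1G27030 had 32.0 and 64.0, with folds of 2.01, 2.01 and 2.00. Just outside it lay AT2G18670, with 35.5 in NOT and 70.9 in WDC, AT5G26760, with 24.0 and 47.8, and AT2G20670, with folds of 1.997, 1.99 and 1.94. The rule thus divides a continuous run of ratios.

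**Figure D3:**
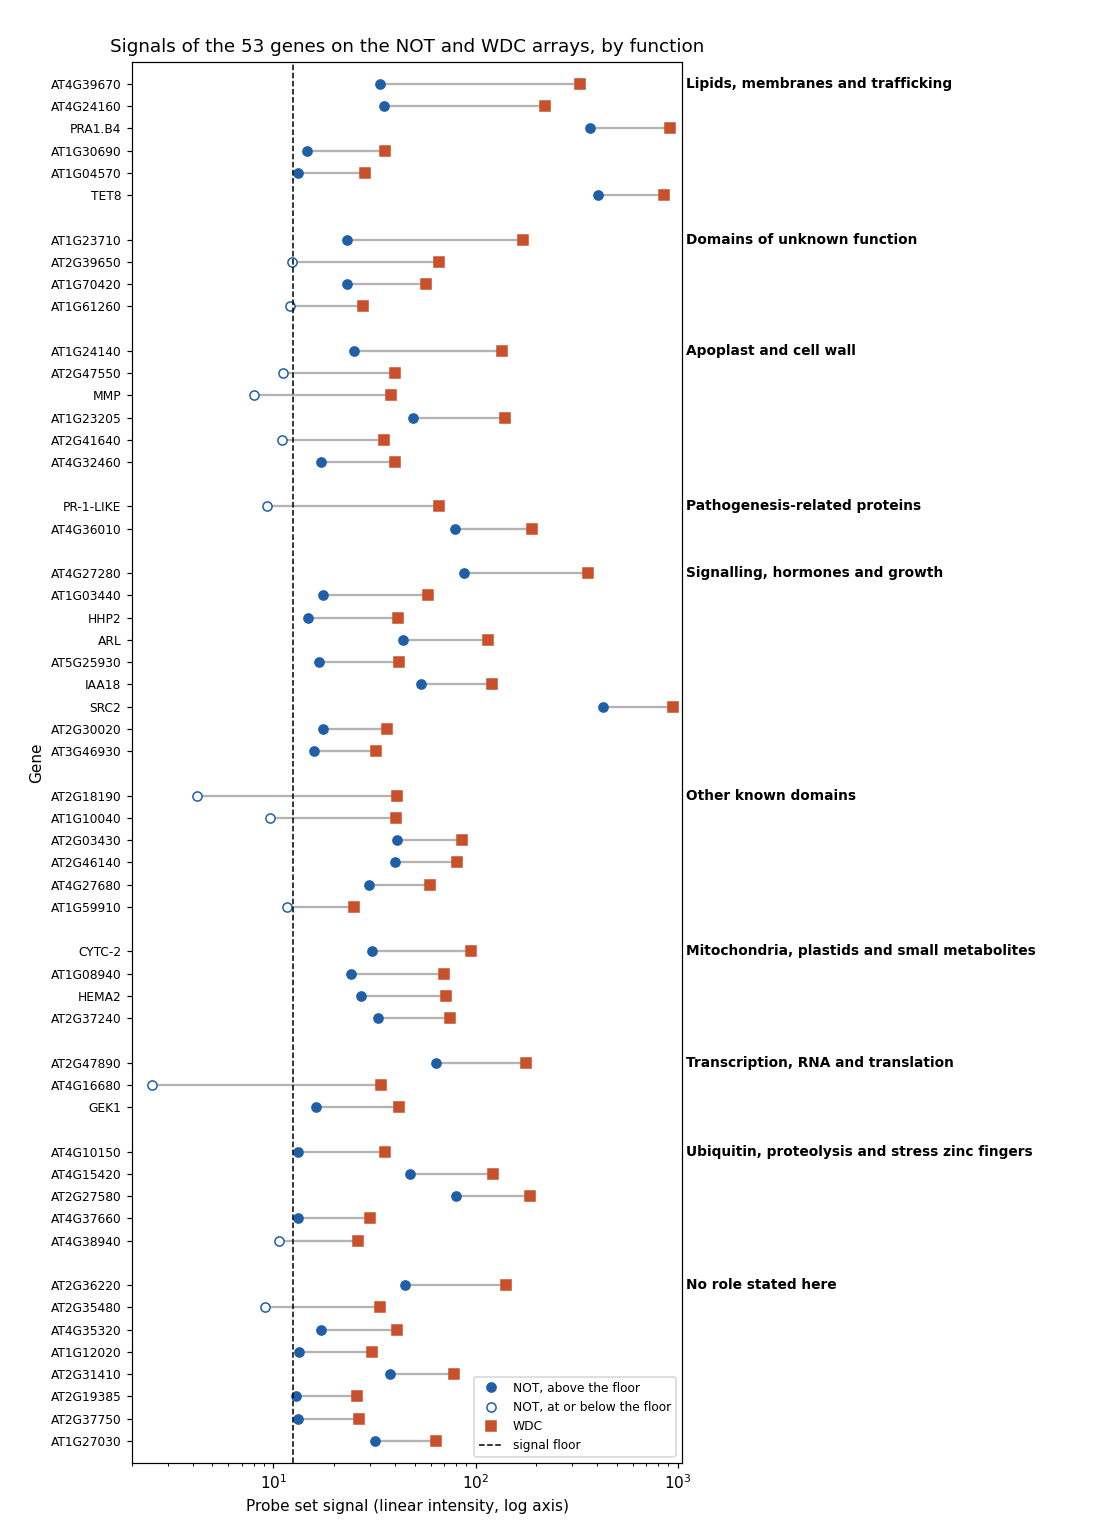
Signal of each of the 53 genes in NOT (circles, open at or below the floor) and in WDC (squares), on a log axis of linear intensity, grouped by function, with the floor as a dashed line. Every square lies to the right of its circle by selection, the longest lines above the floor belong to AT4G39670 and AT1G23710, and PRA1.B4, TET8 and SRC2 are the 3 genes with both signals over 100.

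Around these members, the measured genes of the rapid response to wounding and elicitors did not all share their direction. Of 31 listed genes, 8 had a named probe set, 5 were at least 2-fold lower in NOT and 1 at least 2-fold higher, where 3.40% and 1.32% of all genes above the floor were. The other 2 stayed within 2-fold. The list's median log2 ratio was -1.77, beside -0.02 over all 2118 genes above the floor on either array, where lower values were set at the floor. The 5 were the members AT4G24160, AT1G23710, AT1G24140 and AT2G39650, which were put on the list with their values known, and EXO, so neither the count nor the median is independent evidence of a direction. WRKY53, a transcription factor of senescence and defence, had 109.2 in NOT and 34 in WDC, the opposite direction. STZ, a zinc finger repressor, had 255.7 in NOT and 345.7 in WDC, and AT4G35110 had 33.6 and 27.4.

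The hormone pathways were thinly covered. Of 19 listed genes of jasmonate, 13 of ethylene and 13 of salicylic acid and defence, 1 each had a named probe set. THI2.1, a thionin of the jasmonate response, had 26.5 in NOT and 31.2 in WDC, and EIN3, the central transcription factor of ethylene signalling, had 981.6 and 799.9. The third was WRKY53. None of the 3 was at least 2-fold lower, and each pathway rests on its 1 gene.

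Position in the genome was not itself a term of the rule. The 19 genes set aside by name, however, include some with consecutive locus numbers, so pairs among them are not counted here. By locus number, 17 members were on chromosome 1, 20 on chromosome 2, 1 on chromosome 3, 14 on chromosome 4 and 1 on chromosome 5, out of 794, 1336, 173, 1146 and 151 named genes. Of the protein-coding genes directly next to a member in gene order, 43 had a named probe set and 22 a signal above the floor on either array. Among these 22, 0 were at least 2-fold lower and 0 at least 2-fold higher in NOT, with log2 ratios from -0.78 to 0.98 and a median of -0.03, beside 3.40% lower and 1.32% higher among all genes above the floor. No member was thus next to another member, a count that the setting aside of the 19 could lower. The lowest neighbour was AT1G30700, beside AT1G30690, and the highest AT1G27020, beside AT1G27030, with 150.2 in NOT and 75.9 in WDC. These counts rest on the brightest probe set of each gene. The dimmer probe set of AT1G30700 was 2.70-fold lower in NOT. Beside shares this small, 0 of 22 is not read as a difference.

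Membership near the 2-fold limit depended on how the arrays were scaled. Under 4 other scalings 41 of the 53 genes stayed at least 2-fold lower. They included all 6 of the cell wall, all 5 of protein turnover and all 4 of mitochondria, plastids and small metabolites. All 4 with a domain of unknown function, all 3 of transcription, RNA and translation and the 2 pathogenesis-related proteins stayed too. The 12 that did not were TET8, AT1G04570, AT2G03430, AT2G30020, AT2G31410, AT2G46140, AT4G27680, AT3G46930, AT1G59910, AT2G19385, AT2G37750 and AT1G27030. None of the 53 changed direction, but nothing is read from that. By the rule every member had a log2 ratio of -1.0 or lower. Median and control scaling raised ratios by at most 0.11 and 0.14, so they could not turn a sign. With the floor at the 60th percentile of signals, 40.1, the members still 2-fold lower came to 19, and 35 of the 53 had a WDC signal above that floor. Under all 9 alternatives with the 2-fold rule, 13 genes remained, AT4G39670, AT1G23710, AT1G24140, AT4G27280, AT2G36220, CYTC-2, AT1G23205, ARL, AT4G15420, PRA1.B4, AT4G36010, AT2G27580 and IAA18. Of these alternatives, a lower floor and the mean over probe sets could remove no member. Leaving out shared-sequence probe sets removed the 6 marked members whatever their ratio. AT4G24160, AT2G47890 and SRC2 were lost by that step alone.

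**Figure D4:**
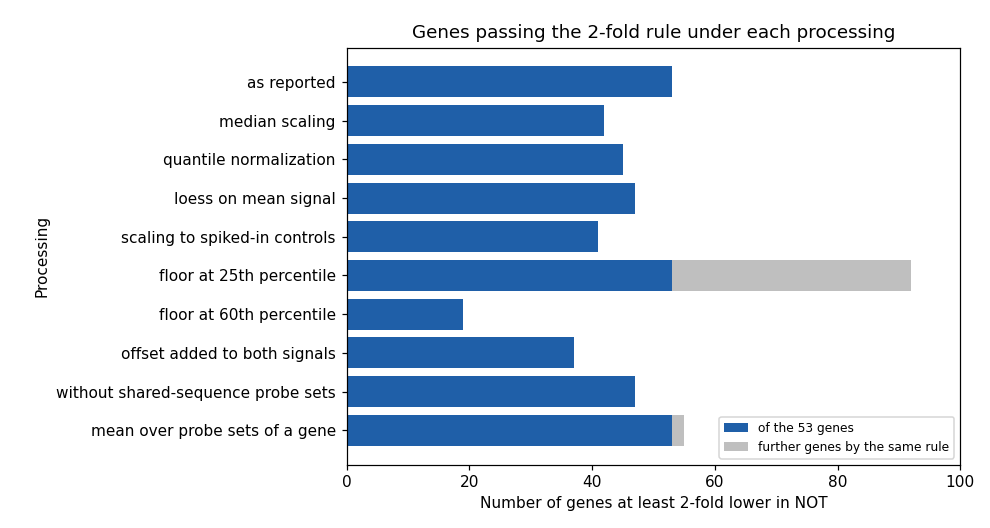
Number of genes at least 2-fold lower in NOT (horizontal) under each processing of the arrays (vertical), with the 53 genes in blue and further genes that met the same rule in grey. Between 41 and 47 of the 53 stay under the 4 other scalings, and 19 stay with the floor at the 60th percentile. All 53 stay with the floor at the 25th percentile by construction, as a lower floor cannot remove a member, and 39 dim genes are added.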

How the data were processed

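Leaf RNA of 2 pooled samples, labelled with biotin, was hybridised to 2 Affymetrix arrays of 8297 probe sets. Each deposited intensity stands for a probe set on an array, on a linear scale. The authors had brought both arrays to a common level, to judge by the values themselves, whose mean without the highest and lowest 2% came to 100.1 in NOT and in WDC. How probes were summarised is not stated in the labels. Median signals were 22.0 (NOT) and 23.7 (WDC).

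Of 8247 probe sets other than controls, 3794 name 1 gene, 70 several and 4383 none here. Of the 3794, 3792 were matched to RefSeq genes of assembly TAIR10.1, which was used for names and gene order, and all 53 members were matched. Members had no second probe set of their own. The floor was the 40th percentile of signals of probe sets other than controls. Bounds set a lower signal at the floor. Suffixes s, f, g, i and r mark probe sets with shared or similar sequence. Every member is named, with values of relatives in small families and of the genes next to members. Members, lists and alternatives were chosen with earlier results of these data known, and functions and small families after the members were known. Roles are background knowledge. Among the symbol families searched, MYB, NAC, nitrilases, syntaxins, ABC transporters, the MAP kinase cascade and calcium-dependent kinases had 0 genes by symbol. Those of glucosyltransferases, glutathione transferases, P450 enzymes, expansins, WRKY, AP2/ERF, bHLH, C2H2 zinc finger and SAUR or GH3 genes held no member, with UGT73B1, UGT73C1, EXPA8, DREB2C and ZAT7, each at least 2-fold lower in NOT, left out by the rule. As 42 of the 53 members have only a locus number as symbol, a search by symbol can miss genes of these families. Promoter motifs were not analysed here. Counting was tested on simulated data. Python 3.11.15, numpy 2.4.6, pandas 2.3.3, statsmodels 0.14.6 (loess, span 0.4) and matplotlib 3.10.9 were used.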

Additional observations from a re-analysis of the deposited data

How the results depend on the processing

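The count of 53 genes was within 1.5 times of its value under median scaling (42), quantile normalization (45), loess (47), scaling to spiked-in controls (41), an offset of 6.25 (37), removal of probe sets with shared sequence (47) and averaging all probe sets of each gene (55). It was 92 with the floor at the 25th percentile (4.3) and 19 with the floor at the 60th (40.1), where the number of the 53 kept was also 19. It was 188 with a 1.5-fold rule and 14 with a 3-fold rule, by construction. Median and control scaling raised log2 ratios by 0.11 and 0.14 for genes above the floor on both arrays, and by less for bounds, which rest on the fixed floor. Of the members' log2 ratios under the alternatives, 396 moved by less than the SD of probe sets of a gene, 57 by more (with the offset or another floor) and 0 changed sign, while 24 were not measured. A constant, a floor or an offset cannot turn the sign of most of them. The mean over probe sets could change no member, as each had 1. Signal over the floor limits the folds of dim genes. No paired analysis was possible because each group has 1 array.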

Other observations

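A further gene, AT1G30700, of the berberine bridge enzyme family and next to the member AT1G30690, had probe sets on either side of the limit. Its brighter probe set gave 38.9 in NOT and 66.9 in WDC, 1.72-fold lower, and the dimmer gave 16.6 and 44.9, 2.70-fold lower. Both are marked for shared sequence. With the mean over probe sets, AT1G30700 and AT4G10480 joined the genes at least 2-fold lower, with log2 ratios of -1.11 and -1.06.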
